A study of Mus musculus with 17 samples.

Results

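LGI proteins, their ADAM22-family receptors and the Caspr2 complex were followed in the hippocampus of mice with acquired temporal lobe epilepsy. The 9 genes were chosen by name and role, by a rule that uses no measured value but was set with earlier results of these data known: the secreted ligands Lgi1, Lgi2, Lgi3 and Lgi4, the receptors Adam22, Adam23 and Adam11, and the adhesion molecules Cntnap2, which encodes Caspr2, and Cntn2, which encodes TAG-1. All 9 were found by symbol among the 55450 genes in the count lists, and all 9 passed the filter on low counts that left 17615 genes for testing. LGI1 is secreted by neurons and bridges ADAM22 and ADAM23 across the synaptic cleft and along the axon. ADAM22 holds both AMPA receptors and Kv1 potassium channels in place through PSD-95, and Caspr2 and TAG-1 cluster Kv1 channels beside the nodes of myelinated axons. Mutations of human LGI1 cause a familial lateral temporal lobe epilepsy, and antibodies against LGI1 or Caspr2 cause limbic encephalitis with seizures.

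Gene expression was measured by RNA-seq of polyadenylated RNA in 17 hippocampal libraries of adult C57BL/6J mice. For 12 libraries epilepsy was induced by injecting the excitotoxin kainic acid into the right amygdala, which brings on status epilepticus, and for the 5 control libraries the mice were sham-treated. Whether a library held 1 mouse or several is not given in the labels. All mice of all 3 groups carried AAV9 vectors injected in the right ventral hippocampus, with a nuclease-dead Cas9 fused to the activator VP64 under a doxycycline-dependent promoter and a rtTA-t2a-tdTomato cassette under a Camk2a promoter, which favours excitatory neurons, and all were fed doxycycline. The guide was sgLacZ, a control guide, in the 5 control and in 6 epileptic libraries, and sgKcna1, directed at the Kcna1 promoter, in the other 6 epileptic libraries. Sham-treated mice given sgKcna1 were not analysed here. The 3 comparisons below share these groups pairwise, so none is independent of the others. The libraries held RNA of all hippocampal cells, transduced or not, and fewer cells of a type cannot be told apart from less RNA per cell.

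Kcna1, the gene targeted by the guide, was measured first as a check of the labels. It stood at 37.5, 44.0, 25.5, 33.7 and 34.6 CPM (reads of a gene relative to all reads in genes, TMM-scaled) in the controls. In the epileptic sgLacZ libraries it had a lowest value of 16.9, a median of 27.6 and a highest of 56.7 CPM. The epileptic sgKcna1 libraries had 13.9, 19.1 and 132 CPM, and the highest was replicate 12. The other 5 sgKcna1 libraries lay between 13.9 and 29.5 CPM, within or below the range of the epileptic sgLacZ libraries. Kcna1 did not pass the threshold between the epileptic groups (log2 fold change 0.32, SE 0.47, edgeR adjusted p = 0.706), and without replicate 12 the difference turned to -0.65 (adjusted p = 0.293). That library was also the shallowest, with 11839240 reads in genes against up to 28311328 elsewhere, and had 41.5% of its reads unmapped. The unmapped share was 24.1% ± 3.38 (SD, n = 5) in controls, 18.6% ± 5.01 (n = 6) in epileptic sgLacZ and 25.2% ± 8.15 (n = 6) in epileptic sgKcna1 libraries. Sex was read as female where Xist exceeded the Y-linked genes. This gave 2 of 5 control, 4 of 6 epileptic sgLacZ and 2 of 6 epileptic sgKcna1 libraries as female, so sex was not balanced between groups. In 4 libraries (epileptic sgKcna1 replicates 1, 11 and 12 and control replicate 16) Xist and Y-linked genes were both at 5 CPM or more, and whether these held RNA of several mice was not tested. For these 4 the reading of sex, later used as a covariate, is uncertain. The summed CPM of 8 hippocampal excitatory neuron markers, including Camk2a and Slc17a7, ranged from 3461 to 6251, whereas 6 markers of thalamus or striatum summed to at most 125 CPM. The 6 choroid plexus markers varied widely between libraries. They summed to between 1201 and 12524 CPM in controls, 4410 and 11442 in epileptic sgLacZ and 292 and 7828 CPM in epileptic sgKcna1 libraries.

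The sequences just upstream of Lgi1, Lgi2 and Cntnap2 are shown as windows that end at the annotated gene start. A noncoding gene annotated in RefSeq, Gm32771, reaches into the window of Lgi1. Whether it was in the annotation used for counting is not given in the sources used here. The windows of Lgi2 and Cntnap2 were not searched for neighbours. Each window is the 250 bases before the annotated start of the gene in RefSeq (GRCm38.p6), written 5′ to 3′ on the strand of the gene. The windows are chr19:38264437-38264686 (plus strand), chr5:52566307-52566556 (minus strand) and chr6:45059811-45060060 (plus strand). Capitals mark GC boxes (GGGCGG on either strand).
Lgi1: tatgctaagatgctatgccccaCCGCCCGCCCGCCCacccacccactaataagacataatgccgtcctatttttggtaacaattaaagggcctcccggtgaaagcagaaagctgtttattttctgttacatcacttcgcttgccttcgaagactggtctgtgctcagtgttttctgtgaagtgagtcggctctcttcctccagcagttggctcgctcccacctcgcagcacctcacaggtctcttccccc
Lgi2: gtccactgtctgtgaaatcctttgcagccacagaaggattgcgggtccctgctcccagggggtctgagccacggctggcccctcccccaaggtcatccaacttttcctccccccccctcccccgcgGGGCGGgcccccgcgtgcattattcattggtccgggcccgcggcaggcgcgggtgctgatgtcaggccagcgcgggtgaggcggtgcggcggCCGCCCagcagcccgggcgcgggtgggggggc
Cntnap2: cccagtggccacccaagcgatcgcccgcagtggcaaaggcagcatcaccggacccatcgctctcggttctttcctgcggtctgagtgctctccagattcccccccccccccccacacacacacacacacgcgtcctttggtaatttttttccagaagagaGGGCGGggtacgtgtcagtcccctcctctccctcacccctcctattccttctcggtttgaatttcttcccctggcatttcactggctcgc
Of the 9 genes, 6 had an entry in the promoter table (Lgi1, Lgi2, Adam22, Adam23, Cntnap2 and Cntn2) and Lgi3, Lgi4 and Adam11 had none. The Lgi1 window held 3 GC boxes, each sharing bases with the next, the Lgi2 window held 2 and the Cntnap2 window 1. The windows of Adam22, Adam23 and Cntn2 held 0, as did a second Cntnap2 window (chr6:47244146-47244395). A GC box was present in 32.9% of 27025 windows of the same length. The letters of a TATA box (TATAAA, in 13.0% of windows), a CRE (TGACGTCA, 1.62%), an E-box (CAGCTG, 12.8%) and an EGR site (GCGTGGGCG, 0.540%), searched on both strands, were in none of the member windows.

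Levels of different genes were set side by side only per kilobase of the longest coding transcript. Lgi3 was the most abundant member at 42.8 ± 4.84 CPM per kb (SD, n = 17), above Lgi1 in 17 of 17 libraries. Lgi1 followed at 27.6 ± 2.84 and Adam11 at 24.6 ± 9.14 CPM per kb, and Lgi1 exceeded Adam11 in 13 of 17 libraries. Cntnap2 stood at 14.9 ± 2.51 CPM per kb, above Adam23 in 14 of 17 libraries. Adam23 (12.5 ± 1.90) and Adam22 (12.5 ± 1.08) did not differ beyond their spread, since Adam23 was the higher in 9 of 17 libraries. The same held for Lgi2 (8.22 ± 1.62) and Cntn2 (7.43 ± 2.50), where Lgi2 was the higher in 10 of 17. Lgi4 was lowest at 0.921 ± 0.845 CPM per kb, but this value depends on how its reads are counted and was 8.27 ± 1.26 when the counts of both strands were added. Lgi2 was then at 7.41 ± 1.41 and Cntn2 at 6.69 ± 2.20. Adding both strands also brought Lgi1 to 33.9 ± 2.88, beside 38.6 ± 4.33 for Lgi3 and 22.2 ± 8.07 for Adam11. The added counts of Lgi1 and Lgi4 include reads that lie in overlapping genes.

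**Figure D1:**
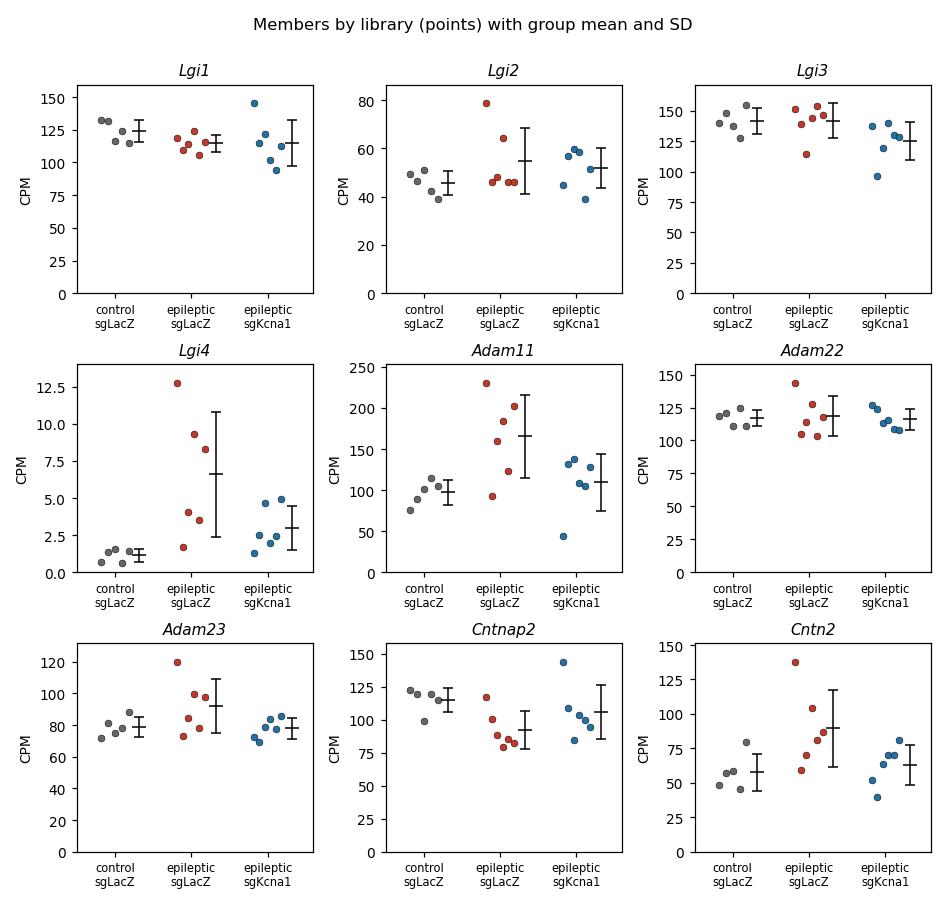
CPM of each member (vertical axis, starting at 0) in the 17 libraries, with the mean and SD of each group of 5 or 6 libraries beside the points. Lgi4 is the only member whose epileptic sgLacZ values all lie above the control values, and Adam11 in epileptic sgKcna1 replicate 12 lies at 44.5 CPM, apart from the others.

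Among the ligands, Lgi1, Lgi2 and Lgi3 differed between groups by no more than their replicates did. Lgi1 (ENSMUSG00000067242.11, chr19:38264687-38308939), the epilepsy gene of the family, had 132, 132, 117, 124 and 115 CPM in the controls. Its lowest, median and highest values were 106, 115 and 124 CPM in epileptic sgLacZ libraries. They were 94.2, 114 and 145 CPM in epileptic sgKcna1 libraries, so the 3 ranges overlapped. The log2 fold change of Lgi1 was -0.11 (SE 0.10, adjusted p = 0.427) in epileptic sgLacZ against control mice and 0.00 (SE 0.09, adjusted p = 0.986) in epileptic sgKcna1 against epileptic sgLacZ mice. Reads of Lgi1 that fall in a gene on the other strand were counted for neither gene. Adding both strand counts gave 1.37 times the unstranded count. In RefSeq the lncRNA genes Gm32771 (chr19:38264534-38272580) and Gm52382 (chr19:38274847-38287768) lie across the Lgi1 locus. Whether these lncRNA genes were in the annotation used for counting is not given in the sources used here. With both strands added, the difference between epileptic sgLacZ and control was -0.17 (SE 0.08, adjusted p = 0.142).

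Lgi2 (ENSMUSG00000039252.11, chr5:52533517-52566306), whose truncation causes a remitting focal epilepsy in dogs, had 49.3, 46.4, 50.9, 42.5 and 39.0 CPM in the controls. In epileptic sgLacZ libraries its lowest, median and highest values were 46.0, 47.1 and 78.6 CPM. In epileptic sgKcna1 libraries they were 38.9, 54.2 and 59.9 CPM. The epileptic sgLacZ values above the controls were those of replicates 4 and 7, at 78.6 and 64.4 CPM, and the other 4 lay inside the control range. The log2 fold change was 0.27 (SE 0.15, adjusted p = 0.215) in epileptic sgLacZ against control mice. Lgi3 (ENSMUSG00000033595.7, chr14:70528547-70538324), which is expressed across the brain and acts with the ADAM22 family on axonal Kv1 channels, had 140, 148, 138, 128 and 155 CPM in the controls. Its epileptic sgLacZ libraries had 115, 145 and 154 CPM and its epileptic sgKcna1 libraries 96.4, 129 and 140 CPM as lowest, median and highest values. All 6 epileptic sgKcna1 values of Lgi3 were below the median of the epileptic sgLacZ libraries, but the difference of -0.18 (SE 0.10) did not pass the threshold (adjusted p = 0.303).

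Lgi4, the ligand by which Schwann cells and other glia engage ADAM22, was the single member that passed the threshold in any comparison. Lgi4 (ENSMUSG00000036560.14, chr7:31058909-31070935) had 0.703, 1.37, 1.59, 0.666 and 1.41 CPM in the controls, from 10 to 38 reads per library. The epileptic sgLacZ libraries had a lowest value of 1.72, a median of 6.17 and a highest of 12.8 CPM. The epileptic sgKcna1 libraries had 1.30, 2.47 and 4.91 CPM. All 6 epileptic sgLacZ libraries were above all 5 controls, and the sgKcna1 libraries lay between, overlapping both groups. The rise in epileptic sgLacZ against control mice was 5.68-fold (log2 fold change 2.51, SE 0.48, edgeR adjusted p = 0.031). An exact two-sided permutation test over the libraries gave p = 0.0043, and 0.117 after adjustment over the 27 tests of members and comparisons.

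The size of the Lgi4 difference depended on the counting of reads. Lgi4 overlaps Fxyd3 (chr7:31070535-31076697), a regulator of the sodium pump, by 401 bases, and in an older annotation (mm9, used for lengths only) 44.9% of the 4584 exon bases of Lgi4 were shared with exons of Fxyd3. The unstranded counts leave out reads in this stretch. They held 1.81% to 5.12% of the reads given to Lgi4 by adding both strands in the controls, 4.13% to 29.0% in epileptic sgLacZ and 3.47% to 12.1% in epileptic sgKcna1 libraries. Fxyd3 itself had 0 to 18 unstranded reads per library, and the added strand counts, from 390 to 934 per library, assign each read of the shared stretch to both genes. In control replicate 13 the added counts were 437 for Lgi4 and 425 for Fxyd3, and in epileptic sgLacZ replicate 4 they were 1293 and 934. How many reads of the shared stretch came from Lgi4 cannot be told from these counts. With both strands added, the reads given to Lgi4 stood at 27.7 ± 4.40 CPM (SD, n = 5) in controls, 37.4 ± 2.99 (n = 6) in epileptic sgLacZ and 34.1 ± 2.45 (n = 6) in epileptic sgKcna1 libraries. The difference between epileptic sgLacZ and control mice was then 0.43 on the log2 scale (SE 0.10, adjusted p = 0.027), in the same direction but far smaller, and the 2 groups overlapped. That value covers the reads shared with Fxyd3 and is not a measure of Lgi4 alone. The unstranded level of Lgi4 also moved with the unmapped share of the library, for which values and a fit with that share as covariate are given below.

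**Figure D2:**
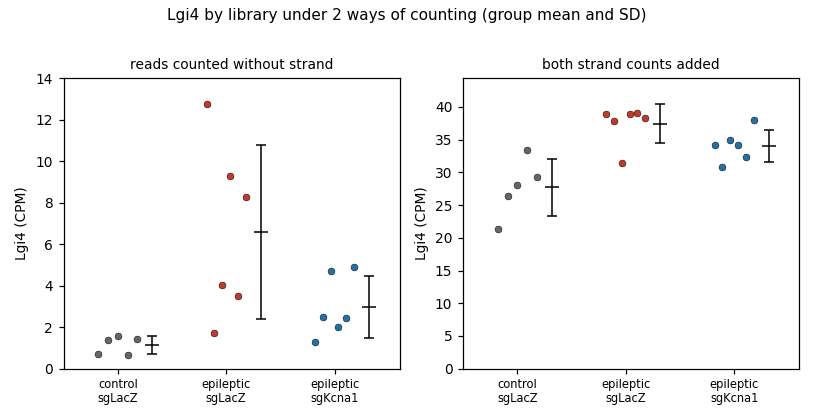
Lgi4 (CPM, axes starting at 0) in each library with group mean and SD, from reads counted without regard to strand (left) and from the sum of both strand counts (right). The left panel shows all epileptic sgLacZ libraries above the controls, from 1.72 to 12.8 against 0.666 to 1.59 CPM, and the right panel shows a smaller difference, 37.4 against 27.7 CPM on average. Values in the right panel include the reads shared with Fxyd3.

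Markers of glia are given beside Lgi4 because LGI4 is made by glia. The 8 astrocyte markers summed to between 2148 and 2524 CPM in controls, 2450 and 3209 in epileptic sgLacZ and 2454 and 2857 CPM in epileptic sgKcna1 libraries, and 2 of the 8 passed the threshold in epileptic sgLacZ against control mice, Gfap and Aldh1l1, both higher, against 11.0% of all genes. The 10 oligodendrocyte markers summed to between 6817 and 9826 CPM in controls, 5207 and 7607 in epileptic sgLacZ and 2899 and 10863 CPM in epileptic sgKcna1 libraries, and 0 of 10 passed by edgeR, with 2 at an unadjusted p under 0.05, against 34.7% of all genes. Their part in the Lgi4 result was not tested.

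Among the receptors, Adam22 was the most even of all members and Adam11 the most variable apart from Lgi4. Adam22 (ENSMUSG00000040537.17, chr5:8072347-8368312), the main LGI1 receptor of the postsynaptic side and the axon, had 118, 121, 111, 124 and 111 CPM in the controls. Its lowest, median and highest values were 103, 116 and 144 CPM in epileptic sgLacZ libraries. They were 108, 114 and 127 CPM in epileptic sgKcna1 libraries. The log2 fold changes were 0.02 (SE 0.09, adjusted p = 0.917) in epileptic sgLacZ against control mice and -0.03 (SE 0.09, adjusted p = 0.850) between the epileptic groups. Adam23 (ENSMUSG00000025964.15, chr1:63445717-63596111), the receptor assigned to the presynaptic side of the LGI1 bridge, had 72.0, 81.2, 74.8, 78.4 and 88.0 CPM in the controls. Its epileptic sgLacZ libraries had 73.3, 90.9 and 120 CPM and its epileptic sgKcna1 libraries 69.1, 78.1 and 85.9 CPM as lowest, median and highest values. In 3 of 6 epileptic sgLacZ libraries Adam23 was above all controls, and the difference of 0.22 (SE 0.11) did not pass the threshold (adjusted p = 0.163).

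Adam11 (ENSMUSG00000020926.16, chr11:102761413-102780263), a receptor of the family that places Kv1 channels at the terminals of cerebellar basket cells, had 75.6, 89.5, 102, 115 and 105 CPM in the controls. In epileptic sgLacZ libraries its lowest, median and highest values were 93.1, 171 and 231 CPM. In epileptic sgKcna1 libraries they were 44.5, 119 and 137 CPM. In 5 of 6 epileptic sgLacZ libraries Adam11 was above all controls, and replicate 5 at 93.1 CPM was not. The difference was 0.77 on the log2 scale (SE 0.25), just outside the threshold (edgeR adjusted p = 0.051), where 694 of the tested genes had an adjusted p between 0.05 and 0.06. It passed in 9 of 26 alternative analyses, including DESeq2 (adjusted p = 0.022) and the fit without epileptic sgKcna1 replicate 12 (adjusted p = 0.010). With the unmapped share of each library in the model, the difference of Adam11 was 0.30 (adjusted p = 0.111). Between the epileptic groups Adam11 was 0.59 lower on the log2 scale with sgKcna1 (log2 fold change -0.59, SE 0.23, adjusted p = 0.220). All 6 sgKcna1 values were below the sgLacZ median.

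The adhesion pair of the Kv1 complex had fitted differences of opposite sign. Cntnap2 (ENSMUSG00000039419.17, chr6:45060061-47301393), encoding Caspr2, a cell adhesion protein whose loss causes cortical dysplasia with focal epilepsy, had 123, 119, 99.4, 120 and 115 CPM in the controls. Its lowest, median and highest values were 79.6, 87.1 and 118 CPM in epileptic sgLacZ libraries. They were 84.3, 102 and 144 CPM in epileptic sgKcna1 libraries. In 4 of 6 epileptic sgLacZ libraries Cntnap2 was below all controls, and the difference of -0.32 (SE 0.13) did not pass the threshold (adjusted p = 0.088). It passed in 2 of 26 alternatives, limma's voom with sample weights (adjusted p = 0.00097, log2 fold change -0.41) and the fit without epileptic sgKcna1 replicate 12 (adjusted p = 0.029). Between the epileptic groups Cntnap2 differed by 0.20 (SE 0.12, adjusted p = 0.349).

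Cntn2 (ENSMUSG00000053024.14, chr1:132509425-132543251), encoding TAG-1, the lipid-anchored partner of Caspr2 on axons and on myelinating glia, had 48.4, 56.9, 58.2, 45.3 and 79.6 CPM in the controls. Its epileptic sgLacZ libraries had 59.1, 83.7 and 138 CPM and its epileptic sgKcna1 libraries 39.7, 66.9 and 81.4 CPM as lowest, median and highest values. In 4 of 6 epileptic sgLacZ libraries Cntn2 was above all controls, and all 6 were above the control median. The difference was 0.64 on the log2 scale (SE 0.21, adjusted p = 0.054), and it passed in 7 of 26 alternatives, including DESeq2 (adjusted p = 0.028). Between the epileptic groups it was -0.51 (SE 0.20, adjusted p = 0.218). The summed oligodendrocyte markers had medians of 8318 CPM in control, 6029 in epileptic sgLacZ and 6999 in epileptic sgKcna1 libraries. Taken per gene, the median log2 fold change of the 10 markers was -0.10 in epileptic sgLacZ against control mice. It was -0.21 in epileptic sgKcna1 against epileptic sgLacZ mice. In epileptic sgLacZ against control mice the 8 hippocampal excitatory neuron markers had a median of 0.43. Of these 3 passed, all higher, against 11.0% of all genes, and the summed medians were 4686 and 4044 CPM. The median was 0.23 over 8 astrocyte, -0.10 over 8 pan-neuronal and -0.25 over 8 interneuron markers. The part of all these markers in the Cntn2 and Adam11 values was not tested.

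**Figure D3:**
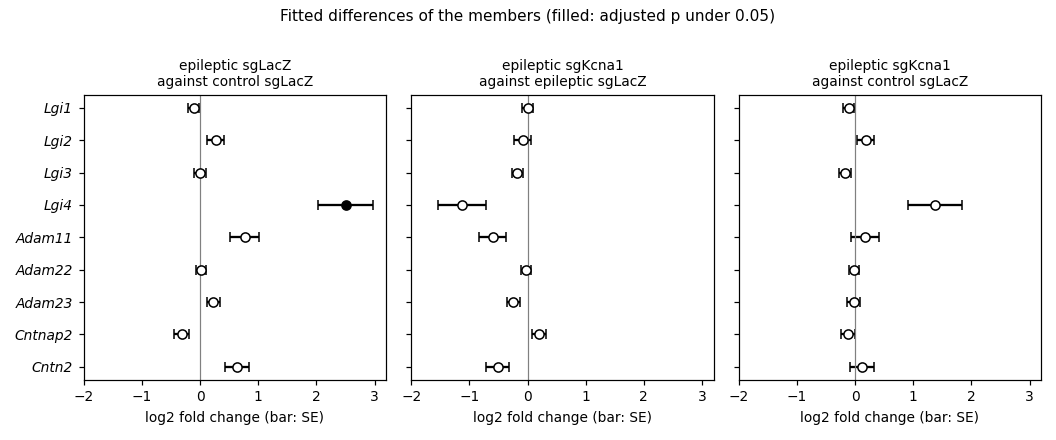
Log2 fold change of each member with its SE (horizontal axis) in the 3 comparisons, with filled points for an adjusted p under 0.05. Lgi4 in epileptic sgLacZ against control mice, at 2.51, is the only filled point, and no member is filled in either comparison with sgKcna1.

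The first comparison asks which members differ in chronic epilepsy. In epileptic sgLacZ against control mice 1 of 9 members passed the threshold, against a background of 11.0% of 17615 genes in either direction, 7.26% for a rise and 3.76% for a fall. The median log2 fold change of the members was 0.22, and that of all tested genes 0.02. Values of both groups did not overlap for 1 of 9 members, against 4.39% of all genes. At an unadjusted p under 0.05 there were 4 members (Lgi4, Adam11, Cntn2 and Cntnap2), against 34.7% of all genes. Exact two-sided permutation tests gave p = 0.0238 for Adam11, 0.026 for Cntn2 and 0.0195 for Cntnap2, each 0.140 after adjustment over the 27 tests. The Lgi4 call was lost in 7 of 17 fits that left out 1 library, with adjusted p up to 0.092 and a log2 fold change of at least 2.21. These were the fits without control replicates 13, 14, 16 or 23 and without epileptic sgLacZ replicates 4, 7 or 9, in each of which 0 genes passed in all by edgeR, with 4557 to 5793 at an unadjusted p under 0.05. The other tools were run with all libraries only.

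The second comparison asks how the members stand in epileptic mice given sgKcna1 against epileptic mice given sgLacZ. By edgeR 0 of 9 members passed the threshold, as did 0.0% of all tested genes, and by DESeq2 and voom 0 of 9 members did. At an unadjusted p under 0.05 there were 4 members, all lower with sgKcna1 (Lgi4, Adam11, Cntn2 and Adam23), against 19.2% of all genes. Their log2 fold changes were -1.13 (SE 0.41) for Lgi4, -0.59 for Adam11, -0.51 for Cntn2 and -0.24 (SE 0.11) for Adam23, with adjusted p from 0.213 to 0.240. In the same comparison 5 of 8 hippocampal excitatory neuron markers were also lower at an unadjusted p under 0.05, with a median log2 fold change of -0.45 over the 8, and their summed CPM was 3716 to 4704 with sgKcna1 and 3752 to 6251 with sgLacZ. Of 6 choroid plexus markers 2 were lower (summed CPM 292 to 7828 against 4410 to 11442), and of 8 interneuron markers 3 were higher (1073 to 1663 against 884 to 1484). Of 8 pan-neuronal markers 2 were higher and 0 lower (6019 to 6902 against 5725 to 6141), with a median log2 fold change of 0.14. None of these markers passed the adjusted threshold by edgeR, and their part in the members' values was not tested. No member was without overlap, against 0.483% of all genes, and the median over the members was -0.18, with -0.01 over all genes. Without epileptic sgLacZ replicate 5, 2 members passed, Lgi4 (adjusted p = 0.043, log2 fold change -1.33) and Adam11 (adjusted p = 0.0498, log2 fold change -0.71), as did 1508 genes in all.

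The third comparison sets epileptic sgKcna1 against control mice, which differ both in the epilepsy and in the guide. By edgeR 0 of 9 members passed, as did 0.0% of all tested genes, and by DESeq2 and voom 0 of 9 did. Lgi4 had the largest difference, 1.38 (SE 0.47, adjusted p = 0.674), with 5 of 6 sgKcna1 libraries above all controls. It was the single member at an unadjusted p under 0.05, against 6.77% of all genes. With the unmapped share in the model the Lgi4 difference was 1.34 and passed (adjusted p = 0.044). For the other 8 members the fitted differences lay between -0.18 (Lgi3) and 0.18 (Lgi2), with no group free of overlap against 1.14% of all genes.

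The levels of several members moved with the share of unmapped reads, a measure of the library that was lowest on average in the epileptic sgLacZ group. Over the 17 libraries the log2 CPM of Adam11 had a Pearson r of -0.94 (permutation p = 1e-05, the smallest that 100000 resamples can give) and a Spearman rho of -0.88 (permutation p = 3e-05) with it. The adjusted values over the 9 members were 9e-05 and 0.00027. Without the farthest libraries, epileptic sgKcna1 replicate 12 and epileptic sgLacZ replicate 4, r was -0.87. Within groups r for Adam11 was -0.93 in epileptic sgLacZ (n = 6, exact permutation p = 0.011), -0.99 in epileptic sgKcna1 (n = 6, exact permutation p = 0.0056) and -0.73 in the 5 controls, where it was not tested. The sign of r was the same in all 3 groups. How many of all tested genes moved with the unmapped share is not given here, so the relation is not shown to be particular to the members. With that share as covariate, 428 of 17615 genes passed by edgeR in epileptic sgLacZ against control mice, and 1940 without it. At an unadjusted p under 0.05 there were 4072 and 6107.

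For Lgi4, r was -0.69 (permutation p = 0.0012, adjusted 0.0053) and rho -0.83 (permutation p = 9e-05, adjusted 0.000405), and r was -0.79 without the same pair of libraries. Within groups it was -0.93 in epileptic sgLacZ (n = 6, exact permutation p = 0.011), -0.80 in epileptic sgKcna1 (n = 6, exact permutation p = 0.0042) and -0.43 in controls (n = 5). With the unmapped share in the model Lgi4 still passed in epileptic sgLacZ against control mice, at 1.68 on the log2 scale (adjusted p = 0.030). Cntnap2 ran the other way, with r of 0.62 (permutation p = 0.0057, adjusted 0.017) and rho of 0.66 (permutation p = 0.0049, adjusted 0.015), and r of 0.80 without the same pair. Within groups r for Cntnap2 was 0.93 in epileptic sgKcna1 (n = 6, exact permutation p = 0.0125), 0.86 in the 5 controls, where it was not tested, and -0.32 in epileptic sgLacZ libraries (n = 6, exact permutation p = 0.529). Cntn2 had r of -0.60 (permutation p = 0.012, adjusted 0.022) and rho of -0.60 (permutation p = 0.012, adjusted 0.022), and -0.52 without the pair. In Cntn2 the relation was seen within epileptic sgLacZ libraries (r = -0.89, n = 6, exact permutation p = 0.021) and was -0.27 in epileptic sgKcna1 libraries (n = 6, exact permutation p = 0.583). Adam23 had r of -0.67 (permutation p = 0.0079, adjusted 0.018) and rho of -0.62 (permutation p = 0.0090, adjusted 0.020), and -0.58 without the pair. Its relation was -0.99 within epileptic sgLacZ (n = 6, exact permutation p = 0.0014) and -0.37 within epileptic sgKcna1 libraries (n = 6, exact permutation p = 0.543). Lgi1, Lgi2, Lgi3 and Adam22 had no adjusted p under 0.05 over the 17 libraries, with r between -0.52 and 0.40. For Adam22 the groups differed in sign, with r of -0.99 within epileptic sgLacZ (n = 6, exact permutation p = 0.0028) and 0.68 within epileptic sgKcna1 libraries (n = 6, exact permutation p = 0.074). The same held for Lgi1, with r of -0.82 within epileptic sgLacZ (n = 6, exact permutation p = 0.049), 0.67 within epileptic sgKcna1 libraries (n = 6, exact permutation p = 0.196) and 0.88 in the 5 controls. Lgi2 had r of -0.86 within epileptic sgLacZ (n = 6, exact permutation p = 0.014), -0.40 within epileptic sgKcna1 libraries (n = 6, exact permutation p = 0.424) and 0.043 in the 5 controls. The differences between groups in r were not tested. The part of the unmapped share in the differences between groups was tested only by its use as a covariate.

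**Figure D4:**
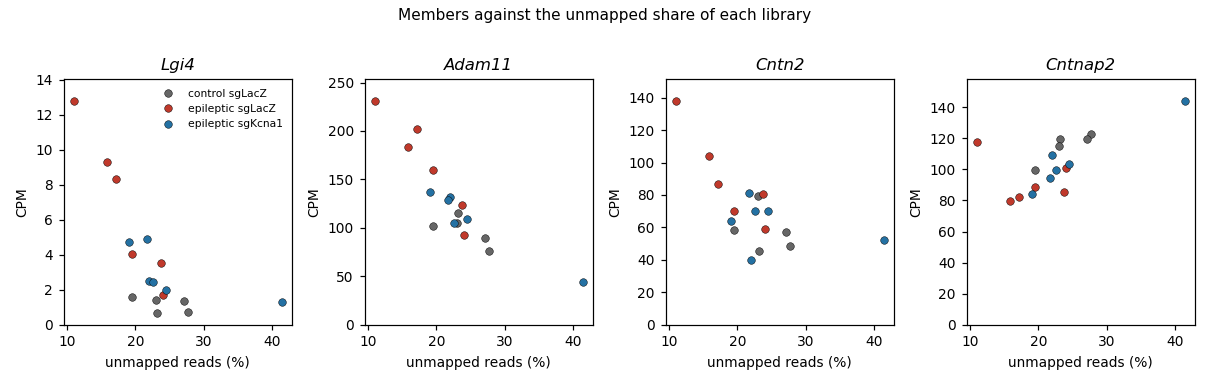
CPM of 4 members (vertical axes, starting at 0) against the percent of reads unmapped in each library, coloured by group. Adam11 falls with the unmapped share in every group, from 231 CPM at 11.0% to 44.5 CPM at 41.5% unmapped, and Cntnap2 is highest, at 144 CPM, in the library with 41.5% unmapped.

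Other genes of the pathway were followed in 3 lists of 40 genes in all, which were fitted in the same model and all tested. In epileptic sgLacZ against control mice 7 of 40 passed the threshold, 4 higher and 3 lower, beside 11.0% of all genes, and 0 of 40 in each of the 7 fits without a single library that left no gene past the threshold. The median log2 fold change over the 40 genes was 0.13, beside 0.02 over all genes. Of 17 axonal scaffold and adhesion partners 3 rose and 0 fell, and the median was 0.32. They were Sptbn4, encoding the spectrin that anchors channels at the axon initial segment and nodes, Cntnap1, encoding the paranodal protein Caspr, and Nfasc, encoding the nodal adhesion molecule neurofascin. Sptbn4 stood at 79.4 ± 11.6 CPM in controls and 133 ± 38.8 in epileptic sgLacZ libraries (log2 fold change 0.75, SE 0.20, adjusted p = 0.036). Cntnap1 stood at 86.1 ± 7.76 and 147 ± 58.9 CPM (log2 fold change 0.77, SE 0.21, adjusted p = 0.039). Nfasc stood at 83.9 ± 3.55 and 136 ± 57.4 CPM (log2 fold change 0.70, SE 0.19, adjusted p = 0.039). With the unmapped share in the model Cntnap1 stood at 0.42 on the log2 scale and lost its call (adjusted p = 0.105), and Sptbn4 stood at 0.40 and kept it (adjusted p = 0.044). With sex in the model neither passed (adjusted p = 0.055 for Cntnap1 and 0.051 for Sptbn4). Of the 6 paralogues of Cntnap2 in the list Cntnap1 alone passed, and the fitted differences of the other 5 had both signs, from -0.63 for Cntnap5c to 0.92 for Cntnap4 (adjusted p = 0.180 and 0.074).

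Of 14 synaptic partners of the LGI1 and ADAM22 complex 2 fell and 0 rose, and the median was 0.01. Gria2, the AMPA receptor subunit that blocks calcium entry, stood at 1350 ± 68.8 CPM in controls and 854 ± 222 CPM in epileptic sgLacZ libraries (log2 fold change -0.66, SE 0.17, adjusted p = 0.033), and its groups did not overlap, with 563 to 1217 CPM in epileptic sgLacZ and 1298 to 1443 CPM in control libraries. Of 9 Kv1 channel subunits 1 rose and 1 fell, and the median was -0.12. The one that rose was Kcna3, encoding a Kv1 alpha subunit, a gene of few reads that had 0 to 0.599 CPM in controls and 0.346 to 4.29 CPM in epileptic sgLacZ libraries (log2 fold change 2.96, SE 0.88, adjusted p = 0.042). The one that fell was Kcnab1, an auxiliary beta subunit of Kv1 channels, at 142 ± 5.77 CPM in controls and 114 ± 7.20 in epileptic sgLacZ libraries (log2 fold change -0.31, SE 0.09, adjusted p = 0.040). The Kcnab1 call was lost with both strands added (adjusted p = 0.060), with no filter (0.104) and with the unmapped share (0.060) or sex (0.060) as covariate.

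In the comparisons with sgKcna1, 0 of 40 pathway genes passed by edgeR, DESeq2 or voom. Between the epileptic groups 6 were higher and 9 lower at an unadjusted p under 0.05, against 19.2% of all genes in either direction, with a median of 0.08. Cntnap1 was among the 2 with the smallest p (log2 fold change -0.64, SE 0.20, adjusted p = 0.213) and did not pass the threshold. Without epileptic sgLacZ replicate 5, 7 of the 40 passed, Cntnap1 (adjusted p = 0.041) among them, as did 1508 of 17650 genes in all. Against control mice 2 were higher and 1 lower at an unadjusted p under 0.05, against 6.77% of all genes, with a median of 0.10. The smallest p belonged to Kcnab1 (log2 fold change -0.22, SE 0.09, adjusted p = 0.682) and Dlg1, encoding the scaffold SAP97 (log2 fold change 0.27, SE 0.11, adjusted p = 0.695).

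**Figure D5:**
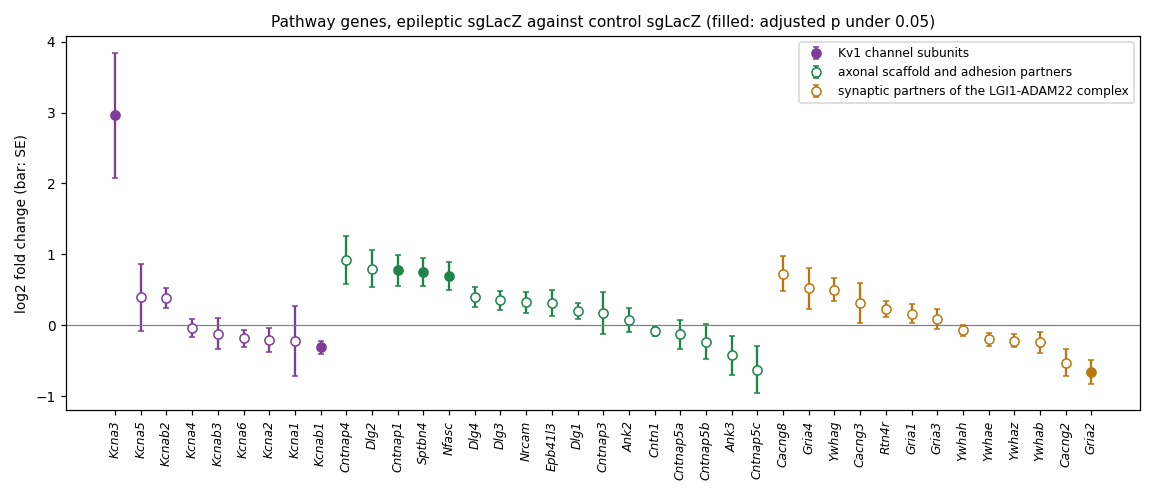
Log2 fold change with SE (vertical axis) of pathway genes in epileptic sgLacZ against control mice, coloured by list and ordered within each list, with filled points for an adjusted p under 0.05. Filled points above 0 are Kcna3, Cntnap1, Sptbn4 and Nfasc, and filled points below 0 are Kcnab1 and Gria2.

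The genes most like Lgi1, Adam22 and Cntnap2 were sought among 11685 other genes of at least 5 CPM on average, by the Pearson correlation of log2 CPM over the 17 libraries after the group means were subtracted. For Lgi1 they were Pcsk5 (r = 0.90), Sox5 (0.87) and Pcdhb13 (0.87). For Adam22 they were 6430548M08Rik (0.95), Lpgat1 (0.94) and 2610507B11Rik (0.92), and for Cntnap2 they were Arid1a (0.94), Stox2 (0.92) and Mamld1 (0.91). Among the 8 members other than Lgi4, which was below 5 CPM on average and was not compared, the closest pair was Adam23 and Cntn2 (r = 0.87, rho = 0.87), and the most opposed was Adam11 and Cntnap2 (r = -0.51, rho = -0.31). These values describe 17 libraries that also differ in depth and unmapped share.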

How the data were processed

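The series holds RNA-seq of 17 hippocampal libraries. Per the labels, polyadenylated RNA was made into libraries with a kit that keeps no strand information, whereas the methods of the study name a stranded kit. The authors' deposited lists, 1 per library, hold unnormalized read counts for each gene, from STAR 2.7 and the mm10 genome per the submitters' processing notes. The annotation release is not given in the sources used here. The authors' own test was DESeq2. Each gene has 3 counts, without strand and for each strand. Both strands held nearly equal reads in each library, so the counts without strand were used, and in these a read inside 2 genes on opposite strands is counted for neither.

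The tests used edgeR 4.0.16 under R 4.3.3 (permutations: scipy 1.17.1 and Python 3.11.15). Genes were filtered with filterByExpr by group, libraries were scaled by TMM, and all 17 libraries entered a single quasi-likelihood fit with 1 coefficient per group, with Benjamini-Hochberg adjustment over 17615 genes and an adjusted p threshold of 0.05. Log2 CPM used a prior count of 2. Fits were tested on simulated data. Permutation tests were two-sided. The alternatives were DESeq2 1.42.0, voom with sample weights (limma 3.58.1), other size factors, no filter, a filter of 1 CPM in 5 libraries, both strands added, the unmapped share or the sex read from Xist and Y-linked genes as covariate, fits of 2 groups, and leaving out each of 17 libraries.

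The members and lists were chosen with earlier results of these data known. All 9 members and Kcna1 are named, and from the 40 pathway genes the 4 with the smallest p among those past the threshold in a comparison, or the 2 with the smallest p where none passed. Of these, 1 gene is counted in its list but not reported here by name or in the plot. Nfasc, Kcna3 and Kcnab1 in the first comparison were named after their values were seen, as the rest of the 7 genes that passed. Likeness was computed for Lgi1, Adam22 and Cntnap2, with the 3 most alike genes each. Markers of oligodendrocytes, astrocytes, microglia, neurons in general, interneurons, hippocampal excitatory neurons, choroid plexus and thalamus or striatum were summed per library. Of these, 1 of 7 microglial markers (Csf1r, higher), 1 of 8 pan-neuronal markers (Nefl, lower), 3 of 8 hippocampal excitatory markers (Wfs1, Slc17a7 and Nptx1, higher), and 0 of 8 interneuron, 0 of 6 choroid plexus and 0 of 6 thalamus or striatum markers passed by edgeR in epileptic sgLacZ against control mice, and at an unadjusted p under 0.05 there were 3, 0 and 0 of the last 3 lists. Over all genes 11.0% passed there and 34.7% had an unadjusted p under 0.05. Coordinates and promoter sequences are those of RefSeq (GRCm38.p6), matched by symbol, and lengths come from transcripts of mm9. The labels do not say whether mice were pooled, so p-values measure the spread between these libraries. Depth was 11839240 to 28311328 reads in genes per library, where 3 reads correspond to 0.106 to 0.253 CPM, for counting error only. Within groups, 40 pairs of libraries differed by 8.67 to 220 times sampling noise (chi-square per degree of freedom), so none was counted as a copy of another.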

Additional observations from a re-analysis of the deposited data

Results flagged for a closer look

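Of 27 sets of values (9 members in 3 groups) 1 held a library apart from the rest of its group by Dixon's test, and chance alone marks about 1 in 20 such sets. It was Adam11 in epileptic sgKcna1 replicate 12, at 44.5 CPM, where the nearest library of the group had 105 CPM and the gap was 0.653 of the whole range. The same library had the largest unmapped share of all, 41.5%, the lowest depth and the highest Kcna1 value, 132 CPM, and their part in the Adam11 value was not tested.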

How the results depend on the processing

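Over 26 alternatives, the 9 members kept their direction and their side of the threshold in 195 of 234 values for epileptic sgLacZ against control mice, in 221 of 234 between the epileptic groups and in 227 of 234 for epileptic sgKcna1 against control mice. In the first comparison the number of members past the threshold was 1, but 3 with DESeq2, with no filter and with 2 groups only, 4 with voom, and 2 with the stricter filter and with both strands added. It ranged from 0 to 4 without single libraries (4 without epileptic sgKcna1 replicate 12, 3 without epileptic sgLacZ replicate 5). Pathway genes past the threshold there were 7, but 15 with DESeq2 and with 2 groups only, 26 with voom, 3 with the unmapped share and 2 with sex as covariate, and 0 to 18 without single libraries. Over all genes the counts there were 1940 by edgeR, 3634 by DESeq2, 7301 by voom, 3045 with 2 groups only, 428 with the unmapped share and 516 with sex as covariate, and 0 to 5526 without single libraries. The same 7 libraries whose absence removed the Lgi4 call each left 0 genes past the threshold. Between the epileptic groups 0 members and 0 pathway genes passed, and the ranges were 0 to 2 and 0 to 7 without single libraries, both highest without epileptic sgLacZ replicate 5, where 1508 of all genes passed. Over all genes 0 passed there by edgeR, 134 by DESeq2 and 12 by voom. For epileptic sgKcna1 against control mice 0 passed, and 1 member and 1 pathway gene with the unmapped share as covariate, where 266 of all genes passed, and over all genes 0 passed by edgeR, 39 by DESeq2 and 71 by voom. The causes were not tested.

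Reversals were seen only in fitted differences that did not pass the threshold. Lgi3 in epileptic sgLacZ against control mice turned to 0.0214 with no filter, 0.0333 with the unmapped share and 0.000201 with sex as covariate, and lay between -0.0348 and 0.0528 without single libraries. Adam22 there turned to -0.00607 with voom and -0.00298 with sex, and lay between -0.0473 and 0.0527 without single libraries. Between the epileptic groups Lgi1 turned to -0.0891 with voom, -0.0163 with no filter and -0.0760 with the unmapped share (-0.0782 to 0.0552 without single libraries), Lgi2 to 0.0135 with voom and 0.0830 with the unmapped share (-0.13 to 0.0495), and Adam22 lay between -0.0687 and 0.0347. For epileptic sgKcna1 against control mice Adam23 turned to 0.00283 with voom (-0.0505 to 0.0230 without single libraries), and Adam22 lay between -0.0513 and 0.00514. The alternatives for Kcna1 and the named pathway genes were chosen after seeing the data. Kcna1 turned to 0.44 with the unmapped share in the first comparison, to -0.31 with voom and -0.85 with the unmapped share in the second (-0.65 to 0.62 without single libraries), and to -0.82 with voom, -0.41 with the unmapped share and -0.13 with sex in the third (-0.87 to 0.29).

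Lgi4 had 10 to 38 reads per control library, so its fold change rests on few reads. No paired analysis was possible because the replicate numbers in the labels are not shared between groups.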
